A study of Mus musculus with 12 samples.

Results

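The prostanoid synthesis and receptor genes described here are 10 of the 21556 genes counted in primary mouse skin fibroblasts: Ptgs1, Ptgs2, Ptges, Ptgis, Ptgds, Ptger1, Ptger2, Ptger3, Ptger4 and Hpgd. They were listed by name for their roles, with earlier results of these data known, and all 10 were found in the count table. The 12 RNA libraries form 4 groups of 3: unstimulated and TGF-β2-stimulated cells of WT and of Nox4 KO animals. The WT cells came from C57BL/6 mice and the Nox4 KO cells from the B6.129-Nox4tm1Kkr/J strain, which carries a targeted germline disruption of the gene for the hydrogen peroxide producing enzyme NADPH oxidase 4. The animals of the 2 genotypes were separate litters bred from WT and knockout littermates, and the fibroblasts were isolated from abdominal skin and expanded over several passages. The age of the donor animals is not given in the sources used here. Per the labels, all cells were starved for 24 h, and the stimulated groups then received 10 ng/ml TGF-β2 for 24 h. The study asked what TGF-β2 changed in the transcriptome of these fibroblasts and whether the loss of Nox4 altered that response. The submitters call the 3 libraries of a group biological replicates, and no source says whether each came from its own animal, so that p-values measure the spread between these libraries.

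Prostanoids are lipid mediators made from arachidonic acid, a fatty acid that phospholipases release from membranes. The cyclooxygenases encoded by Ptgs1 and Ptgs2 convert it to prostaglandin H2, which terminal synthases turn into prostaglandin E2, prostacyclin, prostaglandin D2, prostaglandin F2α or thromboxane, and these act through G protein-coupled receptors near the cells that made them. In skin, fibroblasts are a known source of prostaglandin E2, which is known to restrain fibroblast proliferation and collagen synthesis through receptors that raise cyclic AMP.

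The 250 bases before the start sites of 4 of these genes are shown because Ptgs2, Ptges and Ptger4 are the genes that TGF-β2 changed at least 2-fold, and Ptgs1 is the second cyclooxygenase. The sequences are those of RefSeq on GRCm38.p6, and the set of windows used here held an entry for 8 of the 10 genes. They lie at chr1:150099781-150100030 on the plus strand for Ptgs2, chr2:36230176-36230425 on the plus strand for Ptgs1, chr2:30903298-30903547 on the minus strand for Ptges and chr15:5244188-5244437 on the minus strand for Ptger4, and each is written 5′ to 3′ along its gene. The Ptges window lies inside the gene span of the GENCODE annotation, which has a longer model. Capitals mark a match on either strand to 1 of 8 motifs, namely the CREB core site TGACG, the E-box CACGTG, the C/EBP palindrome TTGCGCAA, the AP-1 site TGANTCA, the SMAD box CAGAC, the TATA box TATAAA, the SP1 box GGGCGG and an NF-kB site.
Ptgs2: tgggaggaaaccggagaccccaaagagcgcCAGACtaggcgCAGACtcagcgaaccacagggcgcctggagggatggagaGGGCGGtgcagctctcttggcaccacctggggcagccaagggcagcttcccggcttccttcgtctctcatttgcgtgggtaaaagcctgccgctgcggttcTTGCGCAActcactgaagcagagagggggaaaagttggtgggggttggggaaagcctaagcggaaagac
Ptgs1: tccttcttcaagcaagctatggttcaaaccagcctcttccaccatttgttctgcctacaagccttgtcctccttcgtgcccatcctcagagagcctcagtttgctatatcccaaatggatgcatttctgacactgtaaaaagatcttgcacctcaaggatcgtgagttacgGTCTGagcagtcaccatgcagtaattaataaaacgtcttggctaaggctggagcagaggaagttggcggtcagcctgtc
Ptges: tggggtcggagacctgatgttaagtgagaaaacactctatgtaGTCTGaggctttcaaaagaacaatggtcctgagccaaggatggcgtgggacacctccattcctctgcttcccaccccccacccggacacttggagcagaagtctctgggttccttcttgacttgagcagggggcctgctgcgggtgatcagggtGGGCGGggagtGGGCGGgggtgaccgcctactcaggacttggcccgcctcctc
Ptger4: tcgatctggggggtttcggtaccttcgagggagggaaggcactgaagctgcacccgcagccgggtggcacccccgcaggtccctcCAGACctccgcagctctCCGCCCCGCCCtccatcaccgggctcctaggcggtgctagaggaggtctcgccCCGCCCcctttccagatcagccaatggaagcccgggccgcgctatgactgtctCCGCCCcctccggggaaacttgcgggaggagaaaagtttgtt
The motifs were searched in windows of 300 bases, from 250 before the start to 50 after it. The C/EBP palindrome stood in the Ptgs2 window, with its first base 69 bases before the start, and in 0.1826% of the 32851 RefSeq windows of this length. Past the start, the bases 9 to 30 of Ptgs2 (chr1:150100039-150100060, plus strand) held a CREB core site on the minus strand that overlapped an E-box by 2 bases, shown here with both in capitals.
Ptgs2, bases 9 to 30: cactaCGTCACGTGgagtccgc
The CREB core site stood in 20.81% of all windows and the E-box in 7.15%. Ptgs2 had 3 SMAD boxes, and Ptgs1, Ptges and Ptger4 had 1 each, against 49.59% of all windows with at least 1. SP1 boxes numbered 4 in Ptger4, of which 2 shared a base, 2 in Ptges, 1 in Ptgs2 and 0 in Ptgs1, and 35.66% of all windows held at least 1. None of these 4 windows held the AP-1 site, the TATA box or the NF-kB site, which were present in 7.808%, 13.62% and 0.4109% of all windows. These matches describe letters in the sequence, and binding of a factor was not measured.

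Total counts ranged from 35118344 to 43796260 per library. Nox4 itself had 203 to 398 counts in WT control, 1314 to 2471 in WT with TGF-β2, 102 to 207 in Nox4 KO control and 782 to 1175 in stimulated Nox4 KO, a sum over all exons that does not show whether the disrupted part was transcribed. The 8 fibroblast markers, among them Col1a1 and Pdgfra, summed to between 4030 and 6938 RPKM, that is counts divided by the exon length in kilobases and by the library total in units of 1e6 counts, in every library. Their sum was 5378 to 6130 RPKM in WT control against 4030 to 5094 in stimulated WT, and 5028 to 6938 against 4226 to 5427 in Nox4 KO, and the part of this shift in other results was not tested. Myeloid markers summed to between 12.2 and 114 RPKM, 7 mast cell markers to at most 0.187 RPKM, 6 keratinocyte markers to at most 0.920 RPKM and 5 endothelial markers to at most 4.77 RPKM. The 5 markers of pericytes and smooth muscle summed to between 90.8 and 178 RPKM, the 6 of melanocytes and Schwann cells to at most 1.29 RPKM and the 5 of adipocytes to at most 0.282 RPKM.

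Of the 10 genes, 5 were expressed at a mean of at least 1 RPKM in all 4 groups, namely Ptgs1, Ptgs2, Ptges, Ptgis and Ptger4, and these were tested with edgeR among all genes that passed this limit in at least 1 of the groups compared. TGF-β2 raised Ptgs2 3.95-fold and lowered Ptges 2.38-fold and Ptger4 3.00-fold in WT, and the same 3 genes were called in Nox4 KO. A call is an edgeR quasi-likelihood adjusted p-value under 0.05 with a change of at least 2-fold. In WT 1 of the 5 tested genes was called higher and 2 lower, while over all 10743 genes tested 2.72% were called higher and 4.96% lower. In Nox4 KO the counts were again 1 and 2 of 5, against 2.22% higher and 4.58% lower over 10809 genes. Over the genes at 1 RPKM or more in both groups, as these 5 are, 2.17% were called higher and 3.55% lower in WT and 1.72% and 3.19% in Nox4 KO. For these 3 genes no stimulated library overlapped the controls, a pattern seen upwards in 20.3% and downwards in 24.9% of all genes tested in WT, and in 17% and 31.5% in Nox4 KO. The other 5 genes were under 1 RPKM in every library and are described by their counts. In bulk RNA, fewer cells of a type and less RNA per cell cannot be told apart.

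**Figure D1:**
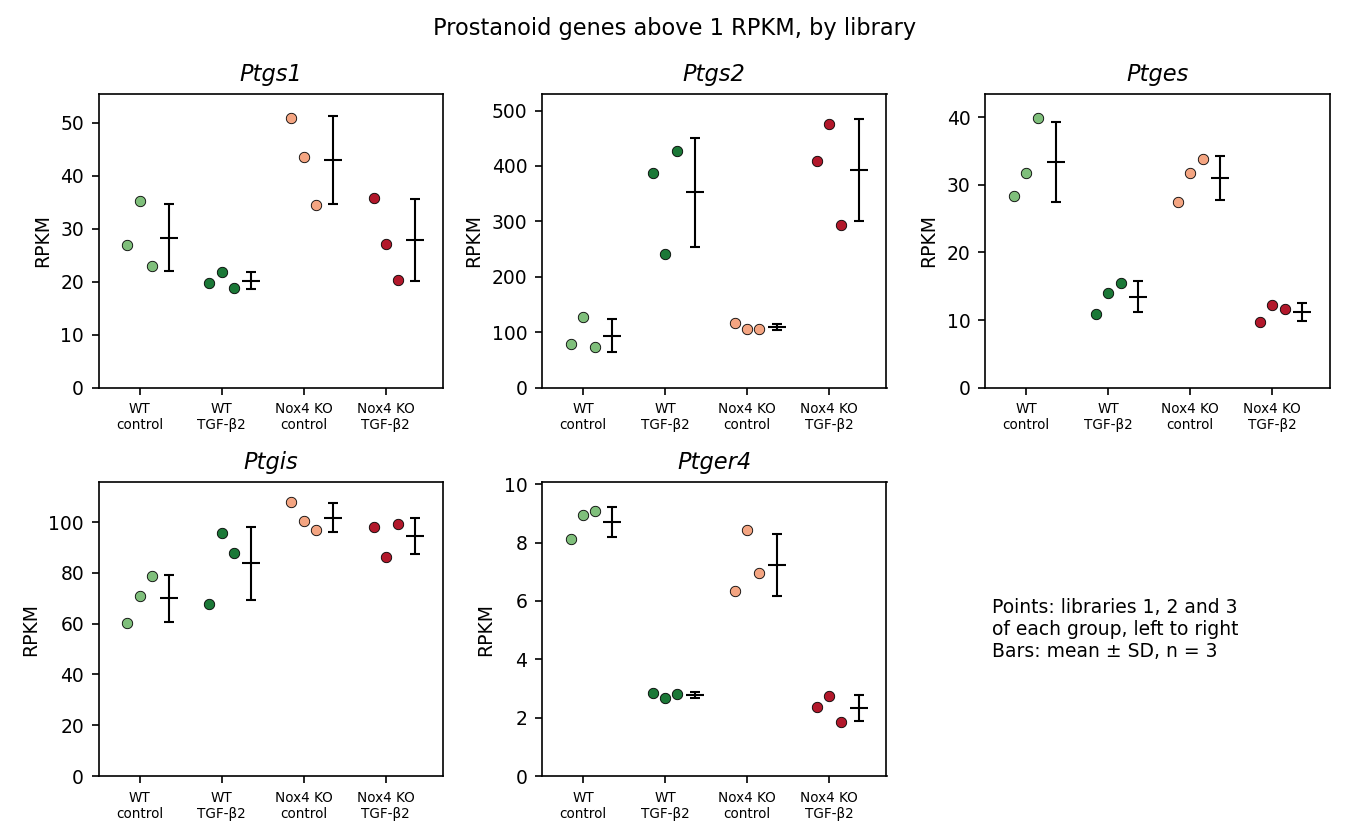
RPKM (y axis, from 0) of the 5 prostanoid genes above 1 RPKM in each library of the 4 groups (x axis). Points are the libraries 1, 2 and 3 from left to right and bars are mean ± SD (n = 3). All stimulated libraries lie above all controls of their genotype for Ptgs2, and below them for Ptges and Ptger4.

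Ptgs2, the inducible cyclooxygenase, had the highest level per kilobase of the 10 genes in every group mean. In WT control it measured 79.0, 128 and 73.4 RPKM in libraries 1 to 3, and 387, 242 and 427 RPKM after stimulation. The Nox4 KO controls had 116, 105 and 106 RPKM, and the stimulated Nox4 KO libraries 409, 475 and 294 RPKM. The lowest stimulated library of either genotype was thus above the highest control of both, and the spread was widest in the stimulated groups. The rise was 1.98 on the log2 scale in WT (SE 0.31, 3.95-fold, edgeR adjusted p = 0.00669) and 1.93 in Nox4 KO (SE 0.19, 3.82-fold, edgeR adjusted p = 0.00293). By mean RPKM Ptgs2 ranked 493 of 21556 genes in WT control and 95 in WT with TGF-β2, and 421 and 79 in the same groups of Nox4 KO. Ptgs2 lies on chromosome 1 (150100031 to 150108227, plus strand, GRCm38), with 11 merged exons of 4580 bp in all.

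Ptgs1 encodes the cyclooxygenase that most tissues express constitutively, and it was lower after TGF-β2 by an amount that did not pass the test. Its level was 26.9, 35.1 and 22.9 RPKM in WT control and 19.8, 21.9 and 18.7 RPKM in stimulated WT. All stimulated WT libraries lay below all WT controls. The log2 fold change in WT was -0.44 (SE 0.17, 95% interval -0.84 to -0.03, edgeR adjusted p = 0.109), and it was -0.61 without library 3 of WT control (edgeR adjusted p = 0.0461), still under 2-fold. In Nox4 KO the controls had 50.9, 43.5 and 34.4 RPKM and the stimulated libraries 35.8, 27.2 and 20.4 RPKM, so that the groups overlapped while each stimulated library was below the control with its own number. The log2 fold change was -0.54 (SE 0.24, edgeR adjusted p = 0.138). With the replicate number as a block, which pairs the Nox4 KO libraries, it was -0.56 (SE 0.06, edgeR adjusted p = 0.00126) and again under 2-fold.

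The balance of the cyclooxygenases therefore moved towards Ptgs2 in RPKM. The ratio of Ptgs2 to Ptgs1 was between 2.93 and 3.64 in the WT controls and between 11.1 and 22.8 in stimulated WT. In Nox4 KO it was between 2.28 and 3.10 in control and between 11.4 and 17.5 after stimulation. The ranges of control and stimulated libraries did not overlap in either genotype, while those of the 2 genotypes overlapped in both conditions. The summed RPKM of both genes had a mean of 122 ± 36.0 (SD, n = 3) in WT control and 372 ± 96.1 (SD, n = 3) in stimulated WT, and of 152 ± 13.5 and 420 ± 96.5 (SD, n = 3 each) in the groups of Nox4 KO.

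Among the terminal synthases, the gene for the inducible prostaglandin E2 synthase fell while that for prostacyclin synthase did not pass the test. Ptges, which encodes microsomal prostaglandin E synthase 1, measured 28.4, 31.8 and 40.0 RPKM in WT control and 10.9, 14.0 and 15.4 RPKM in stimulated WT. In Nox4 KO the controls had 27.4, 31.7 and 33.9 RPKM and the stimulated libraries 9.76, 12.3 and 11.7 RPKM. Control and stimulated libraries were separate in both genotypes, with the highest stimulated library at 15.4 RPKM and the lowest control at 27.4 RPKM. Ptges fell by 1.25 on the log2 scale in WT (SE 0.16, 2.38-fold lower, edgeR adjusted p = 0.00356) and fell by 1.38 in Nox4 KO (SE 0.11, 2.60-fold lower, edgeR adjusted p = 0.00213). Ptges therefore moved in the direction opposite to Ptgs2, the enzyme that supplies its substrate.

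Ptgis, the prostacyclin synthase, was the second most abundant of the 10 genes by mean RPKM in all 4 groups. It measured 60.3, 71.1 and 78.8 RPKM in WT control and 67.9, 95.7 and 87.7 RPKM in stimulated WT, with overlap between the groups (log2 fold change 0.32, SE 0.14, edgeR adjusted p = 0.145). In Nox4 KO the controls had 108, 100.5 and 97.0 RPKM and the stimulated libraries 97.9, 86.4 and 99.4 RPKM. The log2 fold change there was -0.02, with a 95% interval from -0.22 to 0.18 (edgeR adjusted p = 0.859). The ratio of Ptgis to Ptges in RPKM was between 1.97 and 2.24 in WT control and between 5.68 and 6.85 in stimulated WT. It was between 2.86 and 3.93 in Nox4 KO control and between 7.04 and 10.0 after stimulation. These ranges did not overlap between any of the 4 groups. The ratio was not tested, and no share of ratios that separate was computed over other genes. Neither Ptgis nor Ptges was called between genotypes.

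Ptgds, which encodes the lipocalin-type prostaglandin D synthase known from brain and from the dermal papilla of hair follicles, had 0 counts in 11 libraries and 1 count in library 3 of WT control. A count of 0 allows up to 3 counts, or up to 0.0911 RPKM in the smallest library, so that a level under this was not detectable at this depth. Such limits cover counting error only.

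**Figure D2:**
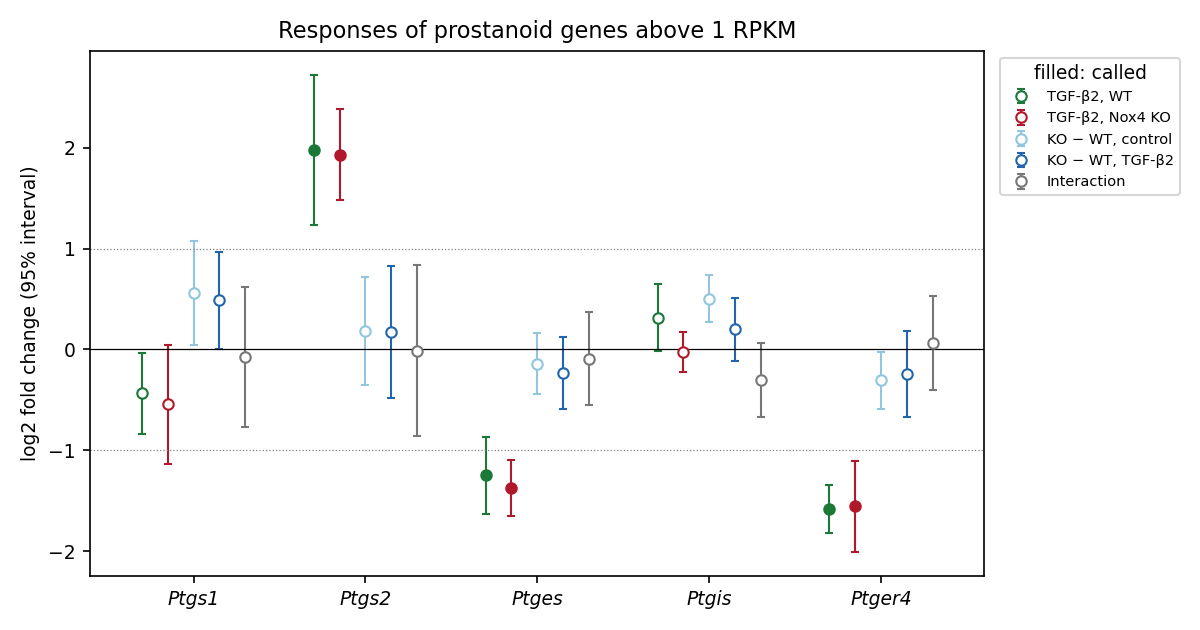
Log2 fold changes (points, y axis) with 95% intervals (bars) of the 5 prostanoid genes above 1 RPKM (x axis) in 4 comparisons and the interaction of genotype and TGF-β2. Filled points are called at an adjusted p-value under 0.05 and at least 2-fold (dotted lines), which holds for Ptgs2, Ptges and Ptger4 with TGF-β2 in both genotypes and for no other point.

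Of the 4 prostaglandin E2 receptors, Ptger4 accounted for most of the receptor RNA and fell with TGF-β2. Ptger4 encodes EP4, a receptor that couples to the stimulatory G protein and raises cyclic AMP. In WT control it measured 8.13, 8.93 and 9.08 RPKM, and in stimulated WT 2.85, 2.68 and 2.82 RPKM. The Nox4 KO controls had 6.34, 8.41 and 6.96 RPKM and the stimulated libraries 2.37, 2.74 and 1.85 RPKM. The highest stimulated library of either genotype, at 2.85 RPKM, was far below the lowest control, at 6.34 RPKM. Ptger4 fell by 1.59 on the log2 scale in WT (SE 0.10, 3.00-fold lower, edgeR adjusted p = 0.000439), and its p-value ranked 31 of the 10743 genes tested in WT. In Nox4 KO it fell by 1.55 (SE 0.19, 2.94-fold lower, edgeR adjusted p = 0.0044). The gene lies on chromosome 15 (5206661 to 5244187, minus strand, GRCm38).

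The share of Ptger4 in the summed RPKM of Ptger1 to Ptger4 was between 94.3% and 95.8% in WT control and between 90.0% and 92.6% in stimulated WT. In Nox4 KO it was between 92.3% and 94.1% in control and between 88.1% and 91.3% after stimulation. The summed RPKM of the 4 receptors had a mean of 9.17 ± 0.544 (SD, n = 3) in WT control and 3.05 ± 0.141 (SD, n = 3) in stimulated WT, against 7.78 ± 1.07 and 2.59 ± 0.452 (SD, n = 3 each) in Nox4 KO.

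The remaining receptors were at low levels. Ptger1, the gene of the EP1 receptor that signals through calcium, had 34, 39 and 58 counts in WT control and 34, 20 and 27 counts in stimulated WT. The Nox4 KO controls had 60, 55 and 57 counts and the stimulated Nox4 KO libraries 38, 37 and 33. Relative to the library total, all stimulated libraries were below all controls in both genotypes (two-sided exact permutation p = 0.1 in each, the smallest that 3 against 3 libraries allow). These counts are uncertain, because they are low and no source says whether reads were counted by strand. Of the genes tested, which passed 1 RPKM, 24.9% in WT and 31.5% in Nox4 KO were lower in all stimulated libraries. No such share was computed for genes under 1 RPKM, such as Ptger1 and Ptger3.

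Ptger3, whose EP3 receptor couples to the inhibitory G protein and lowers cyclic AMP, had 20, 16 and 17 counts in WT control and 14, 9 and 7 counts in stimulated WT. The Nox4 KO controls had 11, 22 and 23 counts and the stimulated Nox4 KO libraries 6, 9 and 8. All stimulated libraries were below all controls of their genotype relative to the library total (two-sided exact permutation p = 0.1 in each). When the filter of edgeR for low counts was used in place of 1 RPKM, the log2 fold change of Ptger3 was -0.78 in WT (edgeR adjusted p = 0.161) and -1.31 in Nox4 KO (edgeR adjusted p = 0.0547), and that of Ptger1 was -0.64 (edgeR adjusted p = 0.151) and -0.71 (edgeR adjusted p = 0.0417). With no filter on low counts, the edgeR adjusted p-value in Nox4 KO was 0.0798 for Ptger3 and 0.0677 for Ptger1. Ptger2, the gene of the second receptor that raises cyclic AMP, EP2, had between 3 and 16 counts in all 12 libraries, with overlap between control and stimulated groups in both genotypes (exact permutation p = 0.4 in WT and 0.2 in Nox4 KO).

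**Figure D3:**
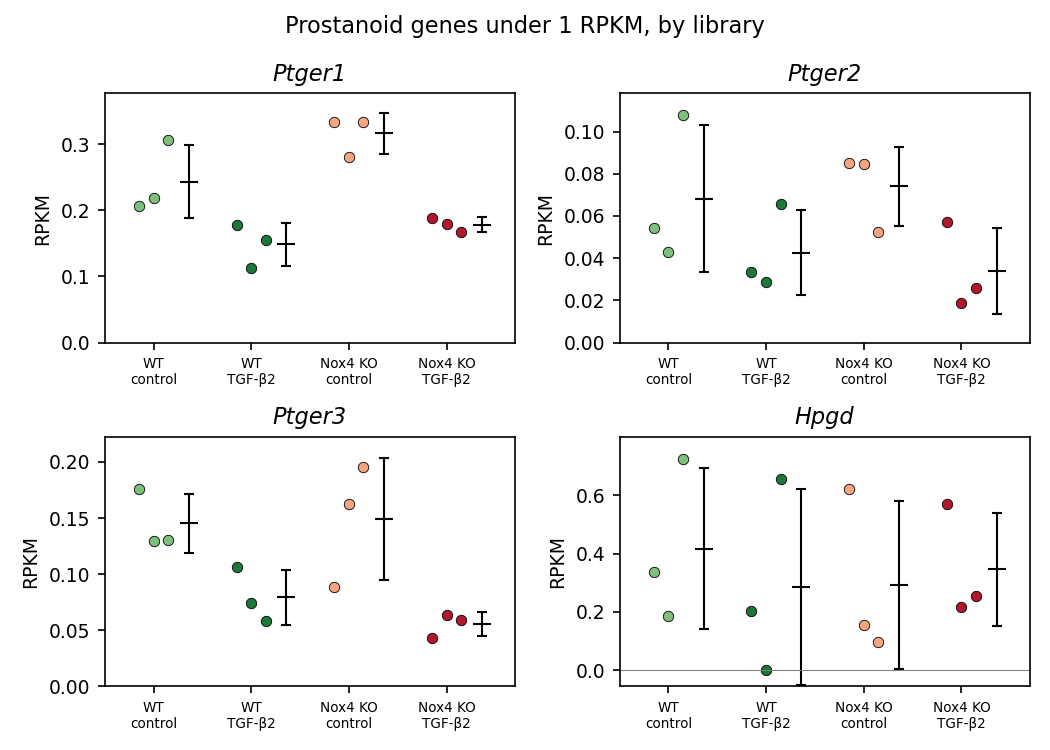
RPKM (y axis, scaled per gene) of Ptger1, Ptger2, Ptger3 and Hpgd in each library of the 4 groups (x axis), with points for libraries 1, 2 and 3 from left to right and bars for mean ± SD (n = 3). Stimulated libraries lie below controls for Ptger1 and Ptger3, and the groups overlap for Ptger2 and Hpgd.

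Hpgd encodes 15-hydroxyprostaglandin dehydrogenase, the enzyme that begins the breakdown of prostaglandin E2. Its counts were 20, 12 and 49 in WT control and 14, 0 and 41 in stimulated WT. They were 40, 11 and 6 in the Nox4 KO controls and 41, 16 and 18 in the stimulated Nox4 KO libraries. Within each group 1 library was well above the others, and control and stimulated libraries overlapped in both genotypes (exact permutation p = 0.5 in WT and 0.6 in Nox4 KO). The summed RPKM of 8 myeloid marker genes varied in a like manner, with 41.6, 22.5 and 114 in WT control and 32.1, 19.2 and 79.2 in stimulated WT. In Nox4 KO it was 87.8, 28.8 and 18.8 in control and 64.0, 21.9 and 12.2 after stimulation. The library with the most Hpgd was also that with the most myeloid marker RNA in 4 of 4 groups, and the library with the least was the same in 3 of 4. The library with the most was number 3 in both WT groups and number 1 in both Nox4 KO groups. Same-numbered libraries may be pairs, so that the 4 groups may not be independent observations. Of the myeloid markers 3 of 8 were under 1 RPKM in every library of each group and none was at 0 throughout a group, and the part of myeloid cells in the Hpgd counts was not tested.

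**Figure D4:**
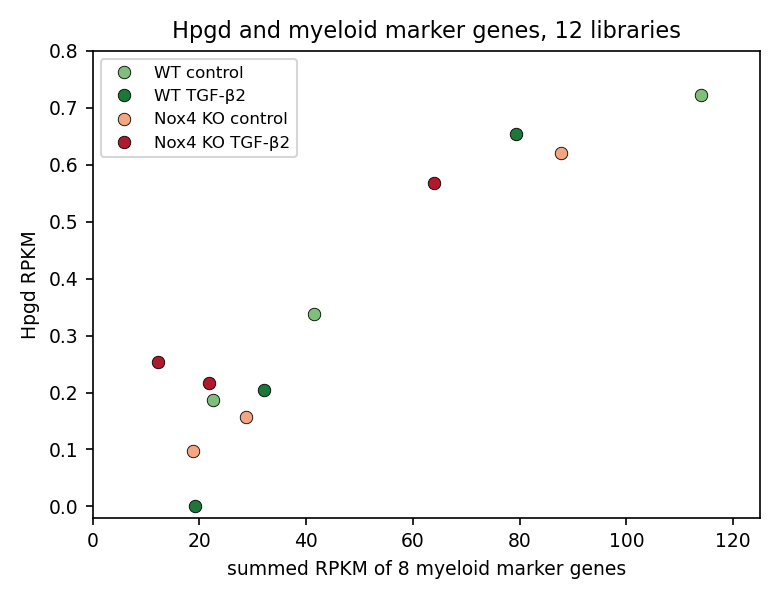
Hpgd RPKM (y axis) against the summed RPKM of 8 myeloid marker genes (x axis) in the 12 libraries, coloured by group. The 4 libraries with the most myeloid marker RNA, 1 of each group, have the 4 highest Hpgd values, from 0.568 to 0.722 RPKM. They are library 3 of both WT groups and library 1 of both Nox4 KO groups.

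Nox4 KO fibroblasts did not differ from WT in any of these genes by the call. In control cells 0 of 5 tested genes were called, as were 0% of all 10767 genes tested, with 3 of the 5 at an unadjusted p-value under 0.05 against 5.54% of all genes. DESeq2 called 0 of the 5 at 2-fold. After TGF-β2, edgeR called 0 of 5 and 0% of 10439 genes, with 1 of the 5 at an unadjusted p-value under 0.05 against 3.23% of all genes, and DESeq2 again called 0.

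Ptgis was higher in all 3 Nox4 KO controls than in all 3 WT controls, at 97.0 to 108 RPKM against 60.3 to 78.8 RPKM. The difference was 0.50 on the log2 scale (SE 0.10, 1.42-fold, 95% interval 0.27 to 0.74), which ranked 15 by p-value but did not pass the adjustment over all genes (edgeR adjusted p = 0.828). With DESeq2 it passed at a change under 2-fold (DESeq2 adjusted p = 0.00771), and over all 13 alternative settings the adjusted p-value ranged from 0.00771 to 1.00. Over all genes tested, 10.9% were higher in all Nox4 KO controls than in all WT controls. After TGF-β2 the groups overlapped (log2 difference 0.20, SE 0.13, edgeR adjusted p = 0.838). Ptgs1 was 0.56 higher on the log2 scale in Nox4 KO control (SE 0.21, edgeR adjusted p = 0.828) and 0.49 higher after stimulation (SE 0.20, edgeR adjusted p = 0.838), with overlap between genotypes in both. The log2 difference of Ptger4 in control was -0.30 (SE 0.12, edgeR adjusted p = 0.828), also with overlap.

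The responses of the 2 genotypes to TGF-β2 were compared in 1 fit over the 12 libraries. The interaction was called by edgeR for 0 of the 5 genes and for 0% of 10890 genes, with 0 of the 5 at an unadjusted p-value under 0.05 against 2.68% of all genes, and by DESeq2 for 0 of the 5. The difference of the log2 responses, Nox4 KO minus WT, was -0.01 for Ptgs2 (95% interval -0.86 to 0.83), -0.09 for Ptges (-0.55 to 0.37) and 0.06 for Ptger4 (-0.40 to 0.53). It was -0.07 for Ptgs1 (-0.77 to 0.62) and -0.30 for Ptgis (-0.67 to 0.07, edgeR adjusted p = 0.854). These intervals bound how far the responses may differ and do not show that they are alike.

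The rest of the prostanoid pathway was read from a list of 17 further genes, of which 13 were tested. Of these, 11 were at a mean of 1 RPKM or more in both control and stimulated cells, and among them 0 were called higher and 1 lower in WT, against 2.17% and 3.55% of all such genes. In Nox4 KO edgeR called 0 of the 11, against 1.72% higher and 3.19% lower. An unadjusted edgeR p-value under 0.05 was seen for 5 of the 11 and for 4356 of all 10224 such genes. DESeq2 called 1 of the 11 and 559 of the 10224. The median log2 fold change of the 11 was -0.20 in WT and -0.28 in Nox4 KO, against 0.03 and -0.0022 over all such genes. The other 2 tested genes, the receptor genes Ptgfr and Ptgir, passed the limit through the control groups alone. A gene that passes in this way has a lower stimulated mean by selection, though by how much is not fixed. Both genes are left out of these counts.

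**Figure D5:**
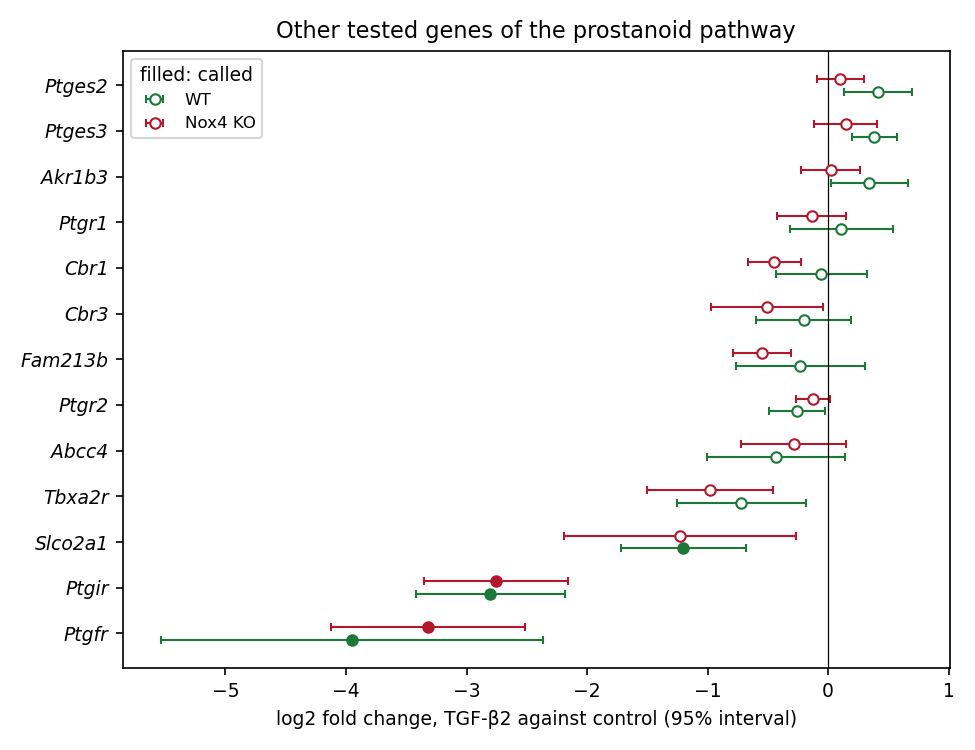
Log2 fold changes with TGF-β2 (x axis, points) and 95% intervals (bars) of the 13 tested genes of the wider prostanoid list (y axis) in WT (green) and Nox4 KO (red). Filled points are called, and the points farthest to the left are those of Ptgfr and Ptgir in both genotypes. Both genes passed the limit of 1 RPKM through the control groups alone, and their calls are not counted in the text.

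Ptgir, the prostacyclin receptor, measured 2.72, 2.34 and 3.78 RPKM in WT control and 0.397, 0.318 and 0.492 RPKM in stimulated WT. It measured 1.94, 2.63 and 1.78 RPKM in Nox4 KO control and 0.231, 0.336 and 0.320 RPKM after stimulation. Its log2 fold change was -2.80 in WT and -2.75 in Nox4 KO. No p-value is given, because the gene passed the limit through the controls alone. Ptgfr, the receptor of prostaglandin F2α, had log2 fold changes of -3.95 in WT and -3.32 in Nox4 KO, likewise given as a description only. Its WT controls had 0.887, 0.716 and 2.81 RPKM, so that the gene reached the limit of 1 RPKM in WT through library 3 of the control. The group means of Ptgir after stimulation were 0.402 RPKM in WT and 0.295 in Nox4 KO, and those of Ptgfr 0.0902 and 0.117 RPKM.

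Slco2a1, the transporter that takes prostaglandins into the cell for breakdown, measured 15.5, 17.3 and 13.5 RPKM in WT control and 7.84, 6.91 and 4.55 RPKM in stimulated WT, and it fell by 1.20 on the log2 scale (SE 0.22, edgeR adjusted p = 0.0104). In Nox4 KO the log2 fold change was -1.23 (SE 0.40, edgeR adjusted p = 0.0604). With the replicate block there it was -1.32 (SE 0.17, edgeR adjusted p = 0.00247), past the call. The thromboxane receptor gene Tbxa2r had log2 fold changes of -0.98 in Nox4 KO (SE 0.22, edgeR adjusted p = 0.0207) and -1.02 with the block (SE 0.16, edgeR adjusted p = 0.00446), just short of and just past 2-fold, and -0.72 in WT (SE 0.22, edgeR adjusted p = 0.0601). The prostaglandin E synthases Ptges2 and Ptges3, which belong to other protein families than Ptges, had log2 fold changes of 0.41 and 0.38 in WT (edgeR adjusted p = 0.0456 and 0.0149) and of 0.10 and 0.15 in Nox4 KO (edgeR adjusted p = 0.364 and 0.339), all under 2-fold.

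On the supply side, a list of 18 genes for the release and return of arachidonate had 12 tested genes, with 1 called higher and 0 lower in either genotype, against 2.72% higher and 4.96% lower over all genes in WT and 2.22% and 4.58% in Nox4 KO. The called gene was Mgll, the monoacylglycerol lipase whose products include free arachidonate. It measured 15.8, 18.5 and 13.4 RPKM in WT control and 39.1, 43.5 and 40.9 RPKM in stimulated WT, a rise of 1.43 on the log2 scale (SE 0.14, edgeR adjusted p = 0.00136). In Nox4 KO it measured 27.5, 20.5 and 19.6 RPKM in control and 53.1, 42.4 and 34.9 RPKM after stimulation, a rise of 1.03 (SE 0.20, edgeR adjusted p = 0.015). Pla2g4a, the cytosolic phospholipase A2 that supplies the cyclooxygenases, had a log2 fold change of 0.42 in WT (edgeR adjusted p = 0.119) and 0.15 in Nox4 KO (edgeR adjusted p = 0.445). The median over the 12 tested genes was -0.06 in WT and 0.05 in Nox4 KO.

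In the parallel pathway from arachidonate, a list of 15 lipoxygenase and leukotriene genes had 3 tested genes in WT and 1 in Nox4 KO, and edgeR called 0 in both. At any fold change an adjusted p-value of 0.05 was passed by 24.1% of all genes in WT and 30% in Nox4 KO, and in this list by Lta4h, the leukotriene A4 hydrolase, with log2 fold changes of 0.47 in WT (edgeR adjusted p = 0.0314) and 0.31 in Nox4 KO (edgeR adjusted p = 0.00698). Lta4h and Pla2g4a were named after their values were seen, as were Tbxa2r, Ptges2 and Ptges3.

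Downstream of receptors that raise cyclic AMP, a list of 14 genes known to respond to cyclic AMP and CREB had 12 tested genes. Of these, 10 were at a mean of 1 RPKM or more in both control and stimulated cells. Among the 10, 0 were called higher and 3 lower in WT, against 2.17% and 3.55% of all such genes, and 0 higher and 4 lower in Nox4 KO, against 1.72% and 3.19%. Their median log2 fold change was -0.68 in WT and -0.70 in Nox4 KO, against 0.03 and -0.0022 over all such genes. Pde4b, a phosphodiesterase that breaks down cyclic AMP and is itself induced by it, fell by 2.45 in WT (SE 0.13, edgeR adjusted p = 0.00038) and fell by 2.09 in Nox4 KO (SE 0.23, edgeR adjusted p = 0.00392). The nuclear receptor gene Nr4a1 had log2 fold changes of -1.29 in WT and -1.61 in Nox4 KO, and Fos of -1.46 and -1.93 (edgeR adjusted p between 0.00422 and 0.0224, all called). Dusp1, a phosphatase of MAP kinases, was called lower in Nox4 KO with -1.08 (edgeR adjusted p = 0.0135) and had -0.75 in WT, under 2-fold (edgeR adjusted p = 0.00479). Not all of the 10 fell. Mean RPKM of Nr4a2 was 3.16 in WT control and 3.93 after stimulation, and 3.98 and 4.09 in Nox4 KO. For Atf3 the means were 2.65 and 3.25 in WT and 1.61 and 2.06 in Nox4 KO. Neither was called, and both were named after their values were seen. The other 2 tested genes passed the limit through 1 group alone and are left out of these counts. Nr4a3, a relative of Nr4a1, had means of 1.94 RPKM in WT control and 0.772 after stimulation, and of 1.76 and 0.551 in Nox4 KO. Fosb went the other way, with means of 0.813 RPKM in WT control and 2.23 after stimulation, and of 0.588 and 1.73 in Nox4 KO. Cyclic AMP was not measured, and these genes also respond to serum and growth factors. No gene of the 4 lists was called between genotypes or in the interaction.

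For the 3 called genes, the genes with the most similar levels were sought over the 12 libraries by Pearson's r of log2(CPM + 0.5) among 10889 genes. Ptgs2 was closest to Nipal1 (r = 0.982), Tbc1d1 (r = 0.981) and Nipa2 (r = 0.980). Ptges was closest to Abcd3 (r = 0.988), Tmem45a (r = 0.987) and Cnksr3 (r = 0.986). Ptger4 was closest to the growth factor gene Fgf7 (r = 0.982), the fibroblast marker Pdgfra (r = 0.981) and the prostacyclin receptor gene Ptgir (r = 0.980). The points are 12 libraries in 4 groups that share the TGF-β2 contrast, and these values are a description.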

How the data were processed

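RNA of 12 libraries from primary mouse skin fibroblasts was measured by single-end sequencing. Alignment by the authors to GRCm38 used STAR (2.4 in the submitters' processing notes) without ambiguous reads, and featureCounts 1.4.6 summed reads over a merged model of each gene's coding isoforms. The deposited values are these raw counts per gene, with no normalization, and the use of strand is not stated. Groups and replicate numbers were read from the sample titles, and all columns were assigned.

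Symbols, positions and merged exon lengths came from GENCODE on GRCm38, by Ensembl identifier, for all 21556 genes. RPKM was computed from count, length and library total. Each comparison was fitted on its own 6 libraries with the quasi-likelihood test of edgeR 4.0.16 (R 4.3.3, limma 3.58.1) after TMM normalization and Benjamini-Hochberg adjustment, for genes with a mean of at least 1 RPKM in at least 1 group. The interaction was fitted over 12 libraries. Genes were called at an adjusted p-value under 0.05 and, except for the interaction, a fold of at least 2. The standard error comes from the F statistic. Genes under the limit were compared by two-sided exact permutation of log2(CPM + 0.5). The test was checked on simulated counts.

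The members and gene lists were chosen with earlier results of these data known. List counts over genes at 1 RPKM in both groups were added after seeing the data. Named genes are the 10 members, genes of the 4 pathway lists called in either TGF-β2 comparison, and the 3 genes most like each member called in WT, besides those said to be named after their values were seen. Alternatives were DESeq2 1.42.0, its size factors, total counts, 2 other filters, all 12 libraries, a replicate block, no fold limit, another pseudocount and leaving out each library. The deviations from the group means of control and stimulated Nox4 KO libraries with the same number correlated across genes (r = 0.764, 0.689 and 0.741), so that these numbers pair samples by this check alone, since neither labels nor methods state a pairing.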

Additional observations from a re-analysis of the deposited data

How the results depend on the processing

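The count of called members was 3 with TGF-β2 in each genotype and 0 between genotypes and in the interaction under every alternative run, and Ptgs2, Ptges and Ptger4 were the called genes in each, with adjusted p-values up to 0.0348. Without 1 library, the log2 fold change in WT was between 1.79 and 2.28 for Ptgs2, between -1.37 and -1.15 for Ptges and between -1.65 and -1.56 for Ptger4, and in Nox4 KO between 1.77 and 2.11, between -1.45 and -1.29 and between -1.70 and -1.41. Among genes under the limit, 4 of 20 pairs of gene and comparison reached the smallest exact p, and 4 did so with a pseudocount of 0.1. These are Ptger1 and Ptger3 with TGF-β2, lower in all stimulated libraries of their genotype. Of the genes tested, which passed the limit, 24.9% in WT and 31.5% in Nox4 KO were lower in all stimulated libraries. No such share was computed for genes under the limit. With the replicate number as a block the called members were 3 and 3 with TGF-β2 and 0 elsewhere, and the call of no member changed. Same-numbered WT libraries correlated at 0.0432, 0.412 and 0.516 in their deviations. Those of the genotypes correlated at 0.0104 to 0.319 in control and -0.193 to 0.303 after TGF-β2. This check did not settle whether these libraries are pairs. In WT each library correlated best with its own number except both libraries 1. The block moved the calls over all genes from 825 to 910 in WT and from 735 to 904 in Nox4 KO, and of the pathway lists it added Slco2a1 and Tbxa2r in Nox4 KO and, in WT, Ggt5, which was tested there through its control mean of 1.61 RPKM alone (0.772 after TGF-β2), and changed no other call.

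Of 350 recomputed log2 fold changes of members, 18 changed sign, in 6 results that were called under no setting. Ptgis with TGF-β2 in Nox4 KO moved from -0.02 to 0.0041 with the filter of edgeR, 0.0073 with no filter and 0.0157 with all 12 libraries, and between -0.0737 and 0.034 without 1 library. Without 1 library, Ptgs2 between genotypes after TGF-β2 was between -0.059 and 0.35, and the interaction was between -0.30 and 0.11 for Ptgs1, between -0.31 and 0.16 for Ptgs2, between -0.24 and 0.00049 for Ptges and between -0.0782 and 0.21 for Ptger4. Over all genes, the calls in WT were 825, 2593 with no fold limit and 1259 with no filter, and in Nox4 KO 735, 3243 with no fold limit and 442 without library 2 of the stimulated group. DESeq2 called 6 genes in each comparison of genotypes and 6 in the interaction, where edgeR called 0. The cause was not tested. With 3 libraries a group a missed call does not show that levels were alike, and counts of at most 60 a library limit Ptger1, Ptger2, Ptger3 and Hpgd.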

Other observations

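The synthase genes of 2 other prostanoids were at low levels. Hpgds, the haematopoietic prostaglandin D synthase, measured 0.139, 0.0981 and 0.442 RPKM in WT control, 0.0847, 0.0153 and 0.301 RPKM in WT with TGF-β2, 0.165, 0.117 and 0.0396 RPKM in Nox4 KO control and 0.154, 0.0394 and 0.0546 RPKM in Nox4 KO with TGF-β2. Tbxas1, the thromboxane synthase, lay between 0.0437 and 0.264 RPKM in the 12 libraries. The library with the highest value was also that with the most myeloid marker RNA in 4 of 4 groups for both genes, and the lowest was the same in 3 of 4 groups for Hpgds and in 4 of 4 for Tbxas1. By contrast, the library highest in Ptgs1 or Ptgs2 was the library highest in myeloid markers in 2 of 4 groups. The part of myeloid cells in these values was not tested. Both genes were named after their values were seen.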
